A study of Mus musculus with 8 samples.

Results

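The 10 genes described here are imprinted genes that set the pace of fetal growth: Igf2, Dlk1, Peg3, Mest and Plagl1, which are expressed from the paternal allele in most fetal tissues, and H19, Igf2r, Meg3, Cdkn1c and Grb10, which are expressed mainly from the maternal one. They were chosen by name and matched by symbol to the gene IDs of the count files. The files hold 55385 gene IDs. All 10 genes were found among them, and all 10 passed the filter of at least 5 read pairs in 3 or more libraries, which left 22545 genes for testing.

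Whole lungs were taken from C57BL/6 mouse fetuses at E18.5, 4 from control fetuses and 4 after tracheal occlusion (TO), in which a ligature passed through the uterine wall at E16.5 closes the trachea and keeps lung liquid inside the airways. The ligature also takes in a carotid artery and a jugular vein on one side, and the methods do not say how the control fetuses were handled. All 8 are bulk libraries of whole lung. Libraries are named by group and replicate. The specimen names also end in a code of 4 digits, and its 3 values are called A, B and C here: A is shared by Control 1, Control 4, TO 1 and TO 4, B by Control 2 and TO 2, and C by Control 3 and TO 3. What the code stands for is not stated, and neither are the litters or dams of the fetuses, so p-values measure the spread between these 8 lungs only.

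Read pairs counted on genes numbered 22822261 in Control 1, 30768440 in Control 2, 32382284 in Control 3, 24511486 in Control 4, 35002061 in TO 2, 24494782 in TO 3 and 34390241 in TO 4. TO 1 had 270078, so that 1 read pair there equals 3.45 CPM (the read count scaled to library size, with TMM factors), against 0.0284 to 0.0438 CPM in the other libraries. The 10 genes are abundant enough to be counted in TO 1 as well, from 20 pairs of Igf2 to 969 of H19, with 57 of Cdkn1c and 136 or more of each of the others. By the distance between log2 CPM profiles TO 1 stood apart, at 341 to 356 from the other libraries, which were 126 to 183 from one another. The lung label held in every library: the surfactant gene Sftpc stood at 4441 to 12798 CPM, the lung epithelial factor Nkx2-1 at 324 to 747 and the lung mesenchymal factor Tbx4 at 110.4 to 197.

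Imprinted genes are silenced on the allele inherited from one parent, so that a single allele supplies the RNA. Several of them act on growth before birth in opposite directions: IGF2 is the main fetal growth factor, IGF2R clears it, GRB10 damps insulin and IGF receptor signalling, and CDKN1C stops the cell cycle, and many members of this group are known to decline together as organs mature around birth. Counts do not separate the alleles, so imprinting itself was not measured in these libraries.

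The 3 genes called by specimen code in the edgeR fit described below, Igf2, H19 and Mest, each carry a microRNA, as does Meg3. The mature sequences are shown because these transcripts are also precursors. The sequences are those of RefSeq (GRCm38.p6), 5′ to 3′, with the seed, bases 2 to 8, in capitals. The H19 microRNAs lie in its exon at chr7:142577112-142577133 and chr7:142577078-142577099 on the minus strand.
miR-675-5p: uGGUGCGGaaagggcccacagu
miR-675-3p: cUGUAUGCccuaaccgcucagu
The Igf2 microRNAs lie in an intron at chr7:142654968-142654989 and chr7:142654932-142654952 on the minus strand.
miR-483-5p: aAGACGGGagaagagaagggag
miR-483-3p: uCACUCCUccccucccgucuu
The Mest microRNAs lie in an intron at chr6:30741314-30741336 and chr6:30741354-30741375 on the plus strand.
miR-335-5p: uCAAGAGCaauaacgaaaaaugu
miR-335-3p: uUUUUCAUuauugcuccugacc
The Meg3 microRNAs lie in an exon at chr12:109563710-109563731 and chr12:109563744-109563765 on the plus strand.
miR-770-5p: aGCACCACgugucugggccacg
miR-770-3p: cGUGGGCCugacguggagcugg
No seed is shared among these 8. The counts are of long RNA, and mature microRNAs were not measured.

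Levels can be compared between genes only per length of exon. On that scale, the mean over the 8 libraries in CPM per kb, H19 stood first with 969, followed by Mest with 189, Dlk1 with 121, Grb10 with 110.3, Igf2r with 96.9, Cdkn1c with 90.1, Plagl1 with 54.1, Peg3 with 36.3 and Meg3 with 34.4. Igf2 stood last with 9.11. Neighbours in this order from Mest to Cdkn1c had ranges over the 8 libraries that overlap, as did Peg3 and Meg3.

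How pairs are counted bears on several of these levels. The deposited counts leave out pairs that fall on 2 genes, and 62.8% of the exon bases of Igf2 also belong to Gm49394, a readthrough model on the same strand that received 0 pairs in all 8 libraries. The Igf2 value therefore comes from the remaining bases and understates its level. Results for Igf2 by code, by group and in correlations rest on those bases too, with 10221 pairs over the 8 libraries. Of the exon bases of Cdkn1c 30.7% lie opposite exons of Gm44732, and of those of Mest 23.1% lie opposite other genes, chiefly Copg2. With the columns for single strands added together, which loses no pairs to opposite genes, Cdkn1c had 2.15 times its pairs, Mest 1.68 times and H19 1.41 times. In the order above this sum would place Cdkn1c ahead of Dlk1, Grb10 and Igf2r. Because the libraries do not mark strand, pairs from a gene and from its antisense partner cannot be told apart in that sum.

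Across the whole table the specimen code separated the lungs more than occlusion did. In a fit with group and code (edgeR quasi-likelihood F test over the 3 codes, Benjamini-Hochberg adjusted p under 0.1), 1240 of 22545 genes were called, 5.50%, with 2.76% lower and 2.74% higher in code C than in code A. Of the 10 imprinted genes 3 were called, Igf2, H19 and Mest, all lower in code C, and 0 higher. At an unadjusted p under 0.05 they were 5 of 10, against 17.2% of all genes. The share of counts on mitochondrial genes also moved with the code, at 1.58% to 2.33% in code A, 1.45% and 1.40% in code B and 1.11% and 1.22% in code C, and its part in these results was not tested. For TO against control, edgeR called 0 of 22545 genes. DESeq2 called 7, and 530 genes (2.35%) had an unadjusted edgeR p under 0.05. Of the 10 imprinted genes 0 were called by either tool, against 0% of all genes by edgeR.

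**Figure D1:**
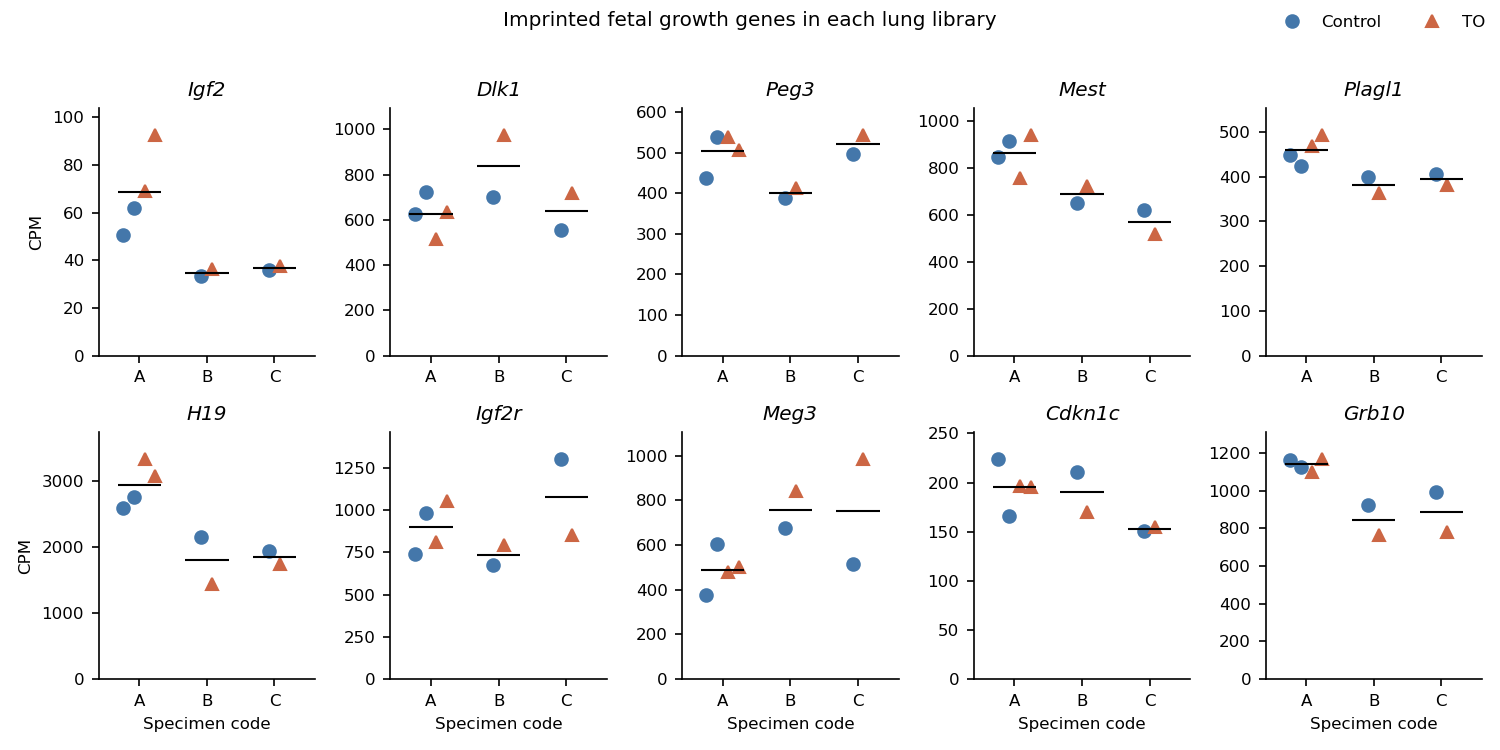
Level of each of the 10 genes in CPM (vertical axis, from 0) in the 8 lungs, arranged by specimen code (horizontal axis), with circles for control, triangles for TO and a line at the mean of each code. Igf2, Mest, Plagl1, H19 and Grb10 are higher in all 4 lungs of code A than in the other 4, while control and TO lungs overlap for each gene.

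Igf2 (ENSMUSG00000048583.16, chr7:142650766-142666816, minus strand, GRCm38) encodes the insulin-like growth factor that drives fetal and placental growth. In code A it stood at 50.6 CPM in Control 1, 61.9 in Control 4, 69.0 in TO 1 and 92.6 in TO 4. It stood at 33.2 CPM in Control 2 and 36.3 in TO 2 of code B, and at 35.98 in Control 3 and 37.5 in TO 3 of code C. The 4 lungs of the other codes lie between 33.2 and 37.5 CPM and all below the lowest lung of code A, and the mean of code C (36.8 ± 1.10 CPM, SD, n = 2) was 53.7% of that of code A (68.5 ± 17.8, SD, n = 4). The log2 fold change was -0.90 (SE 0.19) for code C against code A and -0.98 (SE 0.19) for code B against code A, with an adjusted p of 0.0105 in the edgeR F test. Over the alternatives run this adjusted p lay between 1.63e-07 and 0.0934, and Igf2 was called in each of them. Each alternative leaves out the bases shared with Gm49394, so this result covers only the remaining exon bases of Igf2.

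H19 (ENSMUSG00000000031.16, chr7:142575529-142578143, minus strand) is the maternally expressed noncoding RNA that shares enhancers with Igf2, 72.6 kb away. In code A it stood at 2598 CPM in Control 1, 2761 in Control 4, 3343 in TO 1 and 3079 in TO 4. Code B had 2150.1 CPM in Control 2 and 1446 in TO 2, and code C had 1944 in Control 3 and 1746 in TO 3. Again all 4 lungs of code A were above all others, by a mean of 2945 ± 332 CPM (SD, n = 4) against 1845 ± 140.4 (SD, n = 2) in code C and 1798 ± 498 (SD, n = 2) in code B. The log2 fold change was -0.68 (SE 0.17) for code C and -0.72 (SE 0.17) for code B, each against code A, with an edgeR adjusted p of 0.0304 and a range of 4.62e-07 to 0.126 over the alternatives. The call was lost without TO 4, where the log2 fold change for code C was -0.64 and the adjusted p 0.126.

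Mest (ENSMUSG00000051855.15, chr6:30723547-30748465, plus strand), a hydrolase-like protein of mesoderm that promotes growth, had 846 CPM in Control 1, 915 in Control 4, 756 in TO 1 and 939 in TO 4 of code A. The other lungs had 648 CPM in Control 2, 724 in TO 2, 618 in Control 3 and 519.5 in TO 3. TO 1, the lowest of code A, was only slightly above TO 2, the highest of the rest. The log2 fold change was -0.61 (SE 0.14) for code C and -0.34 (SE 0.14) for code B, against code A, and the edgeR adjusted p was 0.0652, within 0.00134 to 0.259 over the alternatives. The call was lost when some single libraries were left out: the adjusted p was 0.105 without Control 1, 0.131 without Control 3, 0.166 without Control 4, 0.145 without TO 3 and 0.259 without TO 4. The log2 fold changes for code C were then -0.65, -0.77, -0.60, -0.49 and -0.55.

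Grb10 and Igf2r restrain the same pathway. Grb10 (ENSMUSG00000020176.17, chr11:11930508-12038683, minus strand) encodes an adaptor that binds the insulin and IGF1 receptors, and its 4 lungs of code A had 1164, 1125, 1097 and 1169.8 CPM in Control 1, Control 4, TO 1 and TO 4. It had 923 CPM in Control 2, 767 in TO 2, 992 in Control 3 and 781 in TO 3, all below code A. The log2 fold change was -0.37 (SE 0.13) for code C and -0.44 (SE 0.13) for code B, and the edgeR adjusted p was 0.112, so it was not called. It was called by DESeq2 (adjusted p = 0.00840) and by edgeR under 2 other filters, with every gene that had a read (0.0447) and with 5 reads in all libraries (0.0853), and the range over the alternatives was 0.00840 to 0.372. Igf2r (ENSMUSG00000023830.14, chr17:12682406-12769664, minus strand), the receptor that carries IGF2 to lysosomes, ranged from 677 CPM in Control 2 to 1305 in Control 3 with no order by code. Its log2 fold change for code C was 0.26 (SE 0.19) with an edgeR adjusted p of 0.351, and it rested on Control 3: without that library it was -0.18, and without TO 3 it was 0.60 with an adjusted p of 0.0720, within a range of 0.0703 to 0.649.

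In edgeR Plagl1, Cdkn1c and Peg3 were not called by code. Plagl1 (ENSMUSG00000019817.18, chr10:13060504-13131694, plus strand), a zinc finger factor that induces other imprinted genes, had 423 to 493 CPM in the 4 lungs of code A and 363 to 406 in the others, 2 ranges that do not overlap but differ by a log2 fold change of only -0.22 (SE 0.13) for code C (edgeR adjusted p = 0.411, range 0.269 to 0.736). Cdkn1c (ENSMUSG00000037664.13, chr7:143458339-143461050, minus strand), the cyclin-dependent kinase inhibitor p57, had 151 CPM in Control 3 and 155 in TO 3 against 166 to 224 in code A, while the lungs of code B had 211 and 170.5, inside that range. The log2 fold change for code C was -0.35 (SE 0.16; edgeR adjusted p = 0.406, range 0.223 to 0.816). Peg3 (ENSMUSG00000002265.17, chr7:6703892-6730431, minus strand), a zinc finger factor linked to growth and maternal behaviour, ranged from 389.8 CPM in Control 2 to 544 in TO 3, with both lungs of code B below the other 6. Its log2 fold change was 0.04 (SE 0.13) for code C and -0.33 (SE 0.13) for code B, and its edgeR adjusted p was 0.293, while DESeq2 called it at 0.0849, the lowest of a range that reached 0.535.

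Dlk1 and Meg3 share a cluster on chromosome 12, and neither was called by code in the edgeR fit above. Meg3 (ENSMUSG00000021268.17, chr12:109541001-109571726, plus strand), a maternally expressed noncoding RNA, had 375 CPM in Control 1, 605 in Control 4, 479.6 in TO 1 and 499.7 in TO 4 of code A. Code B had 678 CPM in Control 2 and 839.6 in TO 2, and code C had 515 in Control 3 and 987 in TO 3. Control 3 lies inside the range of code A, and TO 3 is the highest of the 8, so the lungs of code C did not resemble each other. The log2 fold change was 0.56 (SE 0.21) for code C and 0.61 (SE 0.21) for code B, with an edgeR adjusted p of 0.190 (range 0.000506 to 0.437). The value for code C was 0.11 without TO 3 and 0.93 without Control 3, neither called, and 0.75 without Control 4, called with an adjusted p of 0.0225. DESeq2 also called Meg3, at 0.0555. Dlk1 (ENSMUSG00000040856.17, chr12:109452823-109463336, plus strand), a Notch-like membrane protein that holds back differentiation, ranged from 518 CPM in TO 1 to 976 in TO 2, with log2 fold changes of 0.00 (SE 0.17) for code C and 0.40 (SE 0.17) for code B (edgeR adjusted p = 0.351, range 0.151 to 0.930).

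By pair of codes in the same fit, code C against code A gave 1772 calls among 22545 genes (7.86%), 3.90% called lower and 3.96% called higher, and of the 10 imprinted genes the same 3 were called lower and 0 higher: Igf2 (edgeR adjusted p = 0.0155), Mest (0.0289) and H19 (0.0374). For code B against code A edgeR called 1 gene (0.00444%), and for code C against code B it called 668 (2.96%). Of the 10 genes it called 0 in either. Against code A, the unadjusted edgeR p was 0.000156 in code B and 0.000342 in code C for Igf2. For H19 it was 0.000991 and 0.00148, and for Mest 0.0335 and 0.000950. The adjusted p for code B was 0.167 for Igf2 and 0.247 for H19, so the adjustment over all genes decided those 2. Both lungs of code C lay below all 4 of code A for 6 of the 10 genes, Igf2, Mest, Plagl1, H19, Cdkn1c and Grb10, against 11.1% of all genes, and above them for 0, against 16.0%. All 4 lungs of the other codes lay below code A for 5 of the 10, against 2.52%, and above it for 0, against 4.45%. The median log2 fold change of the 10 was -0.28 for code C and -0.31 for code B, and that of all genes tested was -0.01 and 0.00.

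Calls over all genes moved with the setting. The 1240 became 997 without Control 1 and 2876 with every gene that had a read, a filter that also tests more genes. Whether 3 calls is the number among the imprinted genes depends on the libraries, the filter and the tool. It was 1 without TO 4, 2 without Control 1 or Control 3, and 6 with DESeq2 and with every gene that had a read. Over all genes the 1240 calls became 347 without Control 3, 604 without TO 4 and 1895 without TO 3, and DESeq2 made 2260. Of the 1240 calls, 298 were among the 347 and 1193 among the 2260.

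**Figure D2:**
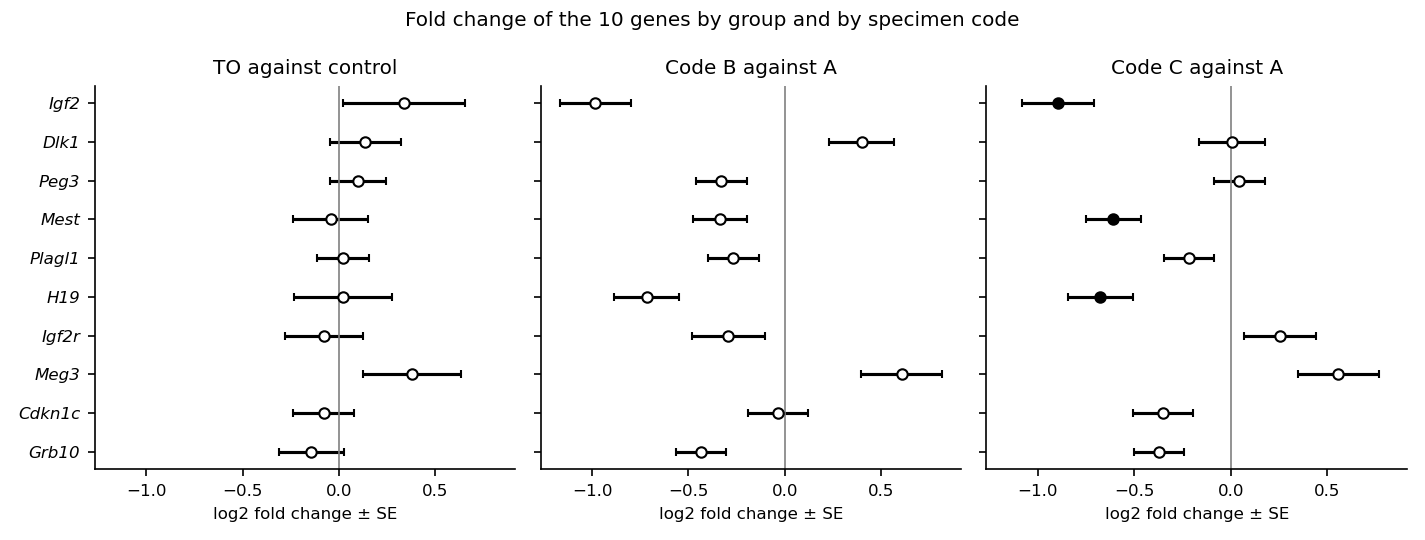
Log2 fold change of each of the 10 genes with its standard error (horizontal axis) for TO against control, for code B against code A and for code C against code A, with filled points where the adjusted p of that comparison is under 0.1. Filled points are those of Igf2, Mest and H19 in the third panel, at -0.90, -0.61 and -0.68.

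Occlusion was compared with control over all 8 lungs, 4 against 4, to ask how it alters the fetal lung. The 2 groups overlapped for each of the 10 genes, so that 0 of 10 stood apart against 2.01% of all genes, and 0 of 10 had an unadjusted p under 0.05. For Igf2 the control lungs averaged 45.4 ± 13.4 CPM and the TO lungs 58.9 ± 27.1 (SD, n = 4 each), a log2 fold change of 0.34 (SE 0.32; 95% interval -0.44 to 1.11 at 6 residual degrees of freedom). Without TO 4, the highest TO lung with 92.6 CPM, the log2 fold change was -0.10. TO 4 is of code A, so leaving it out also changes the mix of codes, and the cause of this change was not tested. For Meg3 the means were 543 ± 130.4 CPM and 701 ± 252 (SD, n = 4 each), a log2 fold change of 0.38 (SE 0.25; interval -0.24 to 0.997). It was 0.17 without TO 3 and 0.23 without Control 1.

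H19 averaged 2363 ± 380.4 CPM in control and 2403 ± 947 in TO (SD, n = 4 each), with a log2 fold change of 0.02 (SE 0.25; interval -0.60 to 0.64). Its TO lungs ran from 1446 in TO 2 to 3343 in TO 1. The other log2 fold changes lay between -0.14 (SE 0.17) for Grb10 and 0.14 (SE 0.18) for Dlk1, with 6 of the 10 above 0 and a median of 0.02, beside -0.02 over all genes. These intervals leave room for changes in either direction, and a p over the threshold does not show that the groups were alike. The edgeR adjusted p was 1 for each of the 10, and the lowest over the alternatives was 0.835, for Meg3.

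Within the codes, TO and control could be set side by side as well. Igf2 was higher in TO by 0.51 on the log2 scale in code A (2 against 2), by 0.13 in code B and by 0.06 in code C (1 against 1 in both). Meg3 was higher by 0.04, 0.31 and 0.94, and H19 differed by 0.26, -0.57 and -0.16. Peg3 was higher in all 3 codes, by 0.10, 0.09 and 0.13, and Grb10 differed by -0.01, -0.27 and -0.34. With the code as a term in the fit, the log2 fold change of Igf2 was 0.33 (SE 0.15), with an unadjusted p of 0.0427 and an edgeR adjusted p of 0.963. That fit called 0 of 22545 genes (0%). With the replicate number as block edgeR called 3 genes (0.0133%), 0 of them among the 10.

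Promoters are shown for Igf2 and Mest, whose 4 lungs of codes B and C were all below code A, and for Meg3, whose lungs were not. Of the 10 genes 8 had windows in the RefSeq table (GRCm38.p6), 15 in all. For each of the 3 the start site with the most CG pairs, the bases at which imprinted promoters are methylated, was taken, and the 250 bases before the start are printed 5′ to 3′ with each CG in capitals. For Mest, the overlapping window chr6:30737803-30738052 holds as many CG pairs as the one printed.
Igf2, chr7:142658805-142659054, minus strand: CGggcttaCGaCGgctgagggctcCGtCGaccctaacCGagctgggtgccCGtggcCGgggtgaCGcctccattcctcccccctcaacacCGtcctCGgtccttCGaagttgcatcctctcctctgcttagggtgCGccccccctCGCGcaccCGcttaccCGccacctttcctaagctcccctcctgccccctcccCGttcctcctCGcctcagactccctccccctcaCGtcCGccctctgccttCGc
Mest, chr6:30737800-30738049, plus strand: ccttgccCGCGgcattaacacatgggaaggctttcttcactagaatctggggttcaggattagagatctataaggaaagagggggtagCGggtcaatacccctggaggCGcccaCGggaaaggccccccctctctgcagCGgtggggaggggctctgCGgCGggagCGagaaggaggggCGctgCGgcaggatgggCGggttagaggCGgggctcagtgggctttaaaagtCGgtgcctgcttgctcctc
Meg3, chr12:109540746-109540995, plus strand: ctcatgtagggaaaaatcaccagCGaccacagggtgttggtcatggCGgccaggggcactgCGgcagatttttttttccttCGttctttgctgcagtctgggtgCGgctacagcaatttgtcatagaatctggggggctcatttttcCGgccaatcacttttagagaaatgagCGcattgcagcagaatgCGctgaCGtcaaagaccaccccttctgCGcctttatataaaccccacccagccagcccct
These windows hold 22 CG pairs for Igf2, 14 for Mest and 10 for Meg3, and 14.8%, 29.4% and 37.8% of all 32851 windows hold as many or more; the median window holds 6. Among the 15 windows the highest number was 40, at a Grb10 start, reached by 1.31% of all windows. The motif TATAAA, sought on both strands (TTTATA), was found in 1 of the 15 windows, that of Meg3, beginning 25 bases before the start on the gene's strand and, overlapping it, 29 bases before the start on the other; 12.4% of all windows hold it. DNA methylation and factor binding were not measured.

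Genes of the same imprinted cluster were compared across the 8 libraries, and some pairs varied together and others did not. Meg3 had a Pearson correlation of log2 CPM of 0.930 with Rian and 0.894 with Mirg, noncoding RNAs 32.2 and 158 kb downstream that are thought to be parts of one long transcript, and of 0.686 with Dlk1, 77.7 kb upstream on the other parental allele. Rian, the most abundant of the other imprinted genes listed, stood at 272 to 521 CPM and Mirg at 26.6 to 70.6, both highest in TO 3. Igf2 and H19 had a correlation of 0.848, and Peg3 had one of 0.906 with its neighbour Zim1. Igf2r and Airn, the antisense RNA that silences it on the paternal allele, had one of 0.00320, and Cdkn1c and Kcnq1ot1, the antisense RNA of its domain, one of -0.234. Mest had one of 0.428 with Copg2 and Grb10 one of 0.564 with Ddc. These are descriptions over the same 8 lungs, which share their codes, and no p is given.

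**Figure D3:**
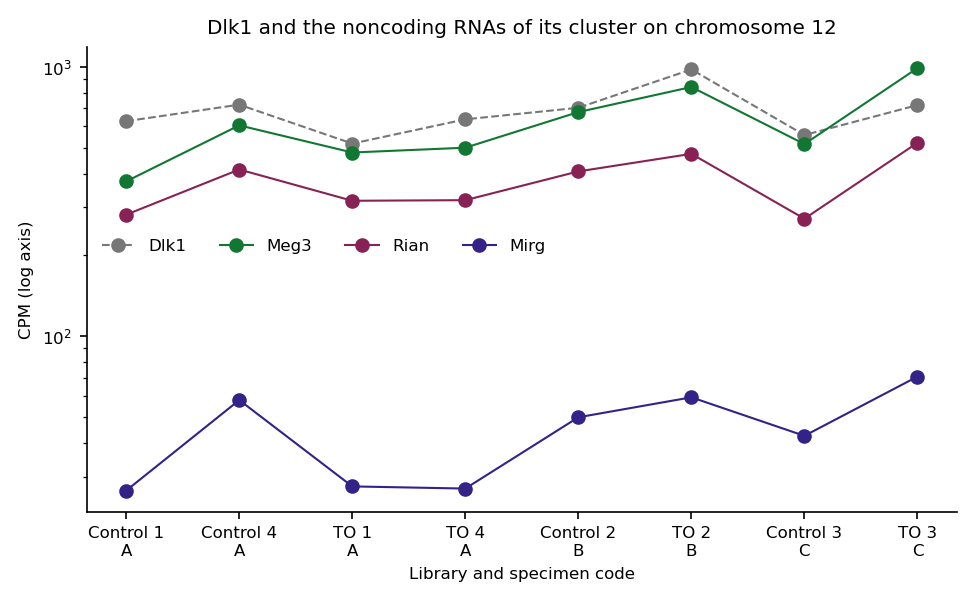
Level of Dlk1, Meg3, Rian and Mirg in CPM (vertical log axis) in the 8 libraries, ordered by specimen code, with a line joining the values of one gene. Meg3, Rian and Mirg are all highest in TO 3, with 987, 521 and 70.6 CPM, and Dlk1 is highest in TO 2, with 976.

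Correlations among the 10 genes fell into similar sets. Plagl1, H19, Grb10 and Igf2 had pairwise values from 0.759 (Igf2 and Grb10) to 0.939 (Plagl1 and H19), and Mest had 0.666 to 0.780 with these 4. Meg3 was opposed to this set, with -0.894 against Grb10, -0.788 against Plagl1, -0.724 against H19 and -0.529 against Igf2, and had -0.621 with Mest. Peg3, Igf2r and Cdkn1c had no value over 0.6 in size except -0.637 between Igf2r and Cdkn1c. Dlk1 had -0.697 with Plagl1 and -0.687 with H19.

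Genes whose level resembled the mean log2 CPM of the 10 were sought among 8704 genes of 20 CPM or more. The 10 with the highest Pearson correlation over the 8 libraries were Zfp334 (0.960), Tenm4 (0.946), Cand2 (0.932), Dlst (0.905), Slc38a1 (0.904), Ccnd2 (0.901), Cluh (0.899), Hdgfl3 (0.897), Arvcf (0.889) and Epb41l3 (0.889). The mean itself was highest in TO 4, Control 4 and TO 1, at 9.21, 9.12 and 9.06, and lowest in Control 2, at 8.85.

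Of 42 other imprinted genes listed, 40 were tested, and 6 were called by code, each lower in code C than in code A, which is 15.0% beside the 5.50% over all genes. Peg10, a retrotransposon-derived placental gene, had a log2 fold change of -0.70 (SE 0.22) for code C and stood at 39.2 to 103.5 CPM in code A against 25.8 to 38.0 elsewhere. Slc38a4, an amino acid transporter, had -0.55 (SE 0.15), with 72.3 to 113.9 CPM against 56.2 to 67.6. Ndn (-0.66), Nnat (-0.56) and Peg12 (-1.54) were lower in code C, with log2 fold changes for code B of 0.05, 0.50 and -0.24, and Dcn, an extracellular proteoglycan, was lower chiefly in code B (-0.83, against -0.24 in code C). The median of the 40 was 0.00. This count became 1 without Control 3 or TO 4 and 3 without Control 4 or TO 2. The most abundant of them besides Rian was Cd81, a tetraspanin, at 200.1 to 283 CPM, not called. Of the 40, 20 were lower and 20 higher in code C than in code A. In the pair comparison of code C with code A edgeR called 3 lower and 1 higher.

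The IGF axis was examined through 16 genes, all tested, and the share called over all genes was 5.50%. Of the 16, 8 were called by code, 2 lower and 6 higher in code C than in code A. Their median log2 fold change was 0.43 for code C and -0.24 for code B, each against code A. The binding protein Igfbp2 fell from 54.3 to 75.6 CPM in code A to 25.5 in Control 3 and 22.6 in TO 3 (log2 fold change -1.36, SE 0.21; edgeR adjusted p = 0.00922), and Igfbp4, one of the most abundant with Igfbp5, fell to 207 and 244 CPM from 352 to 377 (-0.68, SE 0.14). Higher were Igfbp3 (0.97), Igfbp6 (1.08), the IGFBP protease Pappa (1.49) and its inhibitor Stc2 (0.83), the insulin receptor Insr (0.53) and the adaptor Irs2 (0.70). Igfbp5, the most abundant, stood at 314 to 529 CPM and was not called, and neither were Igf1 (-0.48) and Igf1r (0.53). The count of 8 became 2 without Control 3 and 5 without TO 4.

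Of 16 genes of the wider fetal growth programme, among them RNA-binding and chromatin factors of fetal tissue, 15 were tested and 3 called, all lower in code C: the factor Mycn (-1.04, SE 0.25) and the cyclins Ccnd1 (-0.64, SE 0.17) and Ccnd2 (-0.45, SE 0.13). This count became 0 without Control 1, Control 3 or TO 4 and 1 without Control 4. The abundant genes of the list, Gpc3 at 234 to 367 CPM and Sox4 at 142 to 222, were not called. The median log2 fold change of the 15 was -0.35 for code C and -0.18 for code B.

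Cell division genes also followed the code. All 25 of 25 were called and lower in code C than in code A, with a median log2 fold change of -1.82, and their summed level was 3203 and 2569.7 CPM in Control 1 and Control 4 and 3247 and 2664 in TO 1 and TO 4, against 849.6 in Control 3 and 866 in TO 3. In code B Control 2 had 2597, inside the range of code A, and TO 2 had 1748, below it, with a median of -0.38. Mki67, a marker of cycling cells, stood at 499 to 644 CPM in code A and at 180.2 and 131 in code C, and Top2a at 363 to 521 and at 100.8 and 105. The count was 20 without Control 3 and 25 without any other library.

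Between code C and code B the log2 fold change was 0.09 (SE 0.20) for Igf2, 0.04 (SE 0.19) for H19 and -0.27 (SE 0.16) for Mest, none of them called. Control 2 had 2597 CPM of cell division genes, 33.2 of Igf2, 2150.1 of H19 and 648 of Mest. The part of cell division in the results by code was not tested. Over the 8 libraries the correlation with Mki67 was 0.571 for Igf2, 0.714 for H19 and 0.830 for Mest.

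Genes of alveolar maturation went in the opposite direction to Igf2 and H19. Of 20 tested 13 were called by code, all higher in code C, with medians of 0.65 for code C and 0.91 for code B, and 14 of the 20 were higher in all 4 lungs of those codes than in all of code A. The surfactant protein gene Sftpb stood at 618 to 1036 CPM in code A, 1688 and 2232 in code B and 1106 and 1655 in code C, and the phosphate transporter Slc34a2 at 673 to 1149, 1342 and 2381, and 1749 and 2258. Sftpd had the largest difference, 35.6 to 64.3 CPM in code A against 287 and 322 in code C (log2 fold change 2.66, SE 0.28). Sftpc, Sftpa1, Lamp3, Napsa, Lyz2, Ager, Aqp5, Scnn1a, Scnn1b and Scgb1a1 made up the rest. H19 had a correlation of -0.912 with Sftpb over the 8 libraries, Igf2 one of -0.768 and Mest one of -0.519. The count of 13 became 8 without Control 3 and 6 without TO 4.

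**Figure D4:**
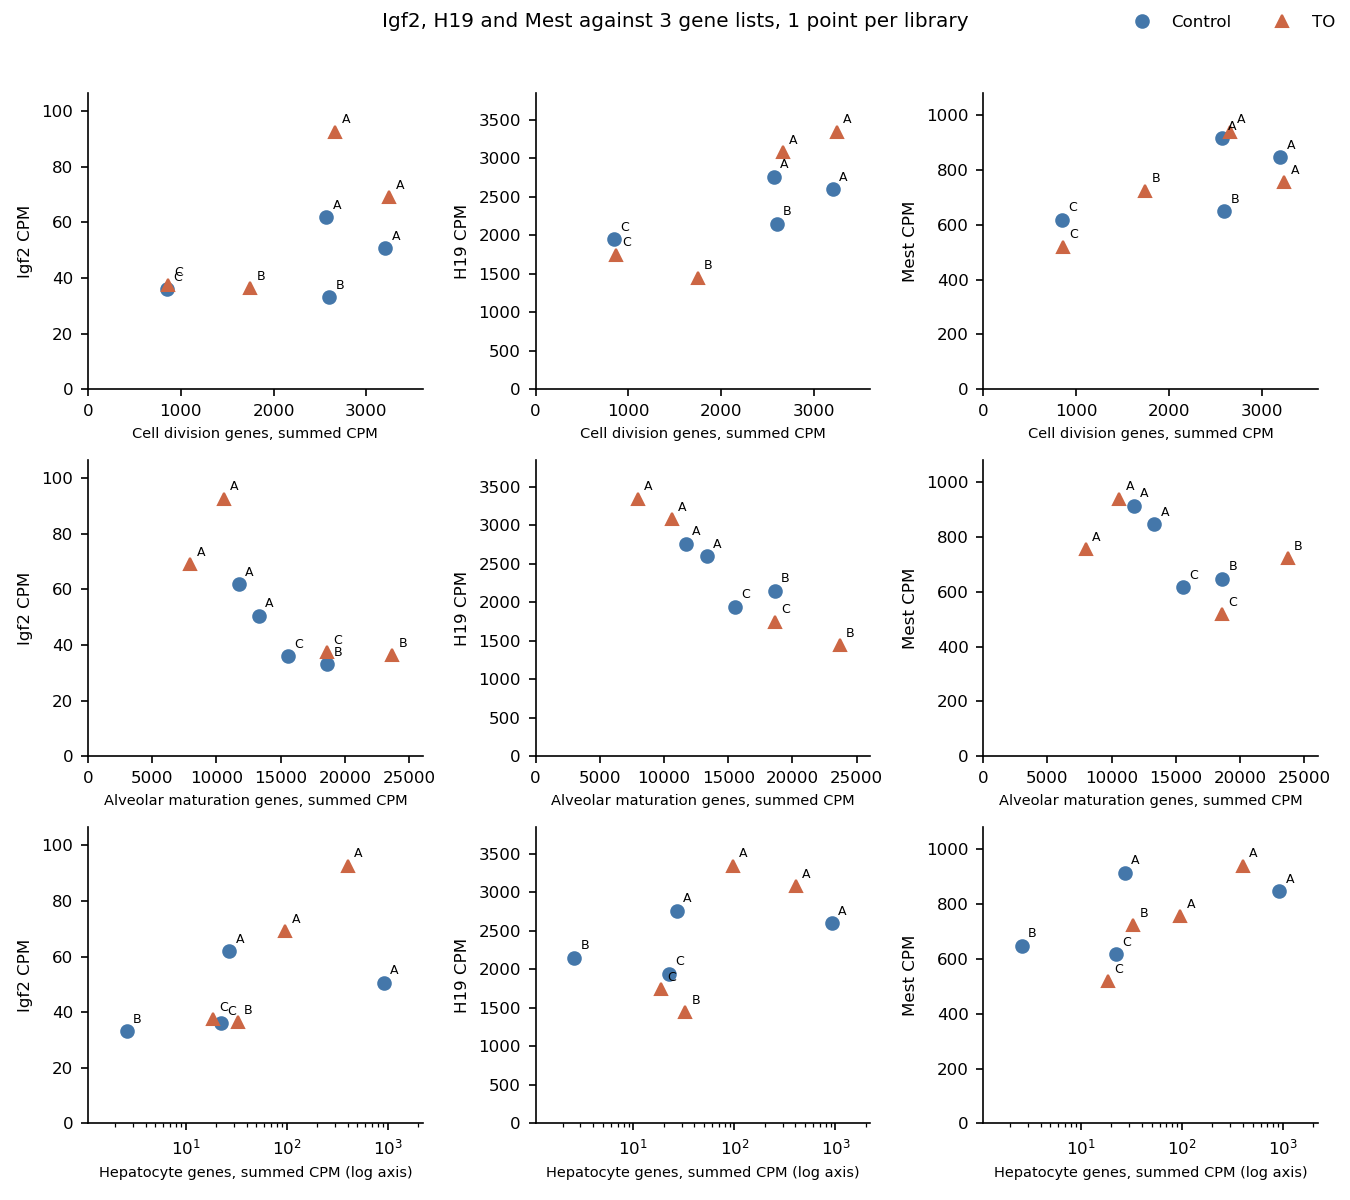
Level of Igf2, H19 and Mest in CPM (vertical axes, from 0) against the summed CPM of 25 cell division genes, 20 alveolar maturation genes and 10 hepatocyte genes (horizontal axes; the last on a log scale), 1 point per library marked with its specimen code. Igf2 and H19 are lower where alveolar maturation genes are higher, and Control 2, with 2597 CPM of cell division genes, has the lowest Igf2.

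**Figure D5:**
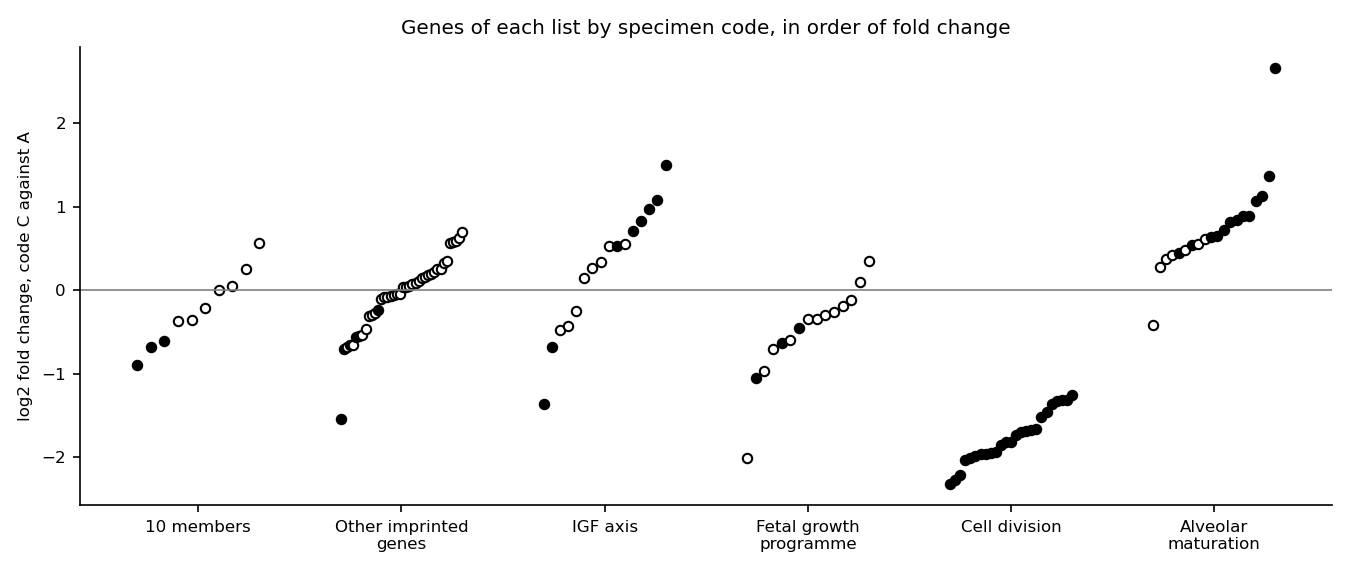
Log2 fold change of code C against code A (vertical axis) for the tested genes of 6 lists (horizontal axis), each list in order of fold change, with filled points for genes called by the F test over the codes. All 25 cell division genes are filled and below 0, and 13 of 20 alveolar maturation genes are filled and above 0.

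Markers of other tissues also varied between these lungs, and some of them with the code. The 10 hepatocyte genes summed to 917 CPM in Control 1, 403 in TO 4 and 96.6 in TO 1, all of code A, and to 27.1 in Control 4; in the others they summed to 2.5997 in Control 2, 32.8 in TO 2, 22.4 in Control 3 and 18.6 in TO 3. Alb and Afp were the most abundant, Alb at 504.7 CPM in Control 1 and 1.66 in Control 2, where 6 of the 10 were at 0. By code 7 of 10 were called lower in code C (Alb, Apoa1, Apoa2, Ttr, Serpina1a, Serpina1b and Fgb). Fetal liver is itself rich in Igf2 and H19, and its part in these values was not tested. Over the 8 libraries the correlation with Alb was 0.702 for Igf2 and 0.569 for H19. Without Control 1, the library with the most, the log2 fold changes for code C were -1.03 for Igf2 and -0.78 for H19. Without TO 4, the library with the next most, they were -0.71 and -0.64. Igf2 was then called and H19 was not (edgeR adjusted p = 0.0934 and 0.126). Bulk counts cannot tell fewer cells of a type from less RNA per cell.

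Markers of skeletal muscle, thymocytes and cartilage were highest in TO 1. Skeletal muscle genes summed to 2836 CPM there and to 24.3 to 314 elsewhere, led by Myh8 and Acta1, with 2 of 9 tested called by code (Myh3 and Tnni2). Thymocyte genes summed to 518 CPM in TO 1 and to 2.08 to 24.5 elsewhere, led by Rag1 and Lck, with 0 of 8 called. Cartilage genes summed to 221 CPM in TO 1 and 44.9 to 103 elsewhere, led by Col11a1 and Col9a2, and 3 of 8 were called lower in code C (Col9a1, Col9a2 and Col11a1). Without TO 1 the log2 fold changes for code C were -0.92 for Igf2, -0.59 for H19 and -0.66 for Mest, all called (edgeR adjusted p = 0.0237, 0.0766 and 0.0515).

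Markers of cardiomyocytes, mesenchyme, epithelium, endothelium, leukocytes and neuroendocrine cells had 0 or 1 gene called by code in each list. Cardiomyocyte genes summed to 827 CPM in Control 1 and 576 in Control 2 and to 2617 to 7618 in the other 6, led by Myh6 and Actc1, with 0 of 10 called. Mesenchyme genes summed to 9377 to 13957 CPM, led by Col3a1 and Col1a1, and 1 of 10 was called, Wnt2, at 54.2 to 58.8 CPM in code A and 15.1 and 19.7 in code C. Epithelium genes summed to 1698 to 3086 CPM (Nkx2-1 and Cdh1, 0 of 10 called) and endothelium genes to 1642 to 2743 (Cdh5 and Pecam1, 1 of 10 called, Flt1, higher in code C). Leukocyte genes summed to 143 to 176 CPM in the 4 control lungs and 268 to 335 in the 4 TO lungs, without overlap (Lyz1 and Csf1r, 0 of 10 called by code). Neuroendocrine genes summed to 23.8 to 39.5 (Uchl1 and Calca, 1 of 10 called, Uchl1, lower in code C). For TO against control edgeR called 0 genes in the whole table. At an unadjusted p under 0.05, where 2.35% of all genes lay, were 8 of 9 skeletal muscle genes, 6 of 8 thymocyte genes and 6 of 10 leukocyte genes, with median log2 fold changes of 2.77, 4.87 and 0.87, and 4 of 10 epithelium genes, with a median of -0.26 and all 10 lower in TO. TO 1 stood far above the other TO lungs in skeletal muscle genes (2836 CPM against 153 to 314). The same held for thymocyte genes (518 against 3.78 to 24.5). The summed leukocyte level was higher in all 4 TO lungs, while TO and control lungs stood apart for only 1 of the 10 leukocyte genes.

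Of a list of erythroid genes, single genes are given and no sum. The adult globin gene Hbb-bs stood at 1311 to 1873 CPM in code A, 2468 and 2821 in code B and 2464 and 1970.3 in code C, and Hba-a1 at 697 to 1128.8, 1642 and 1472, and 1959.9 and 1428. Both were called by code and higher in code C than in code A, as were Hba-a2, Hbb-bt, Alas2 and Slc4a1, while the embryonic globin gene Hbb-y was called and lower. The part of blood in the results by code was not tested.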

How the data were processed

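RNA of 4 control and 4 TO whole lungs was sequenced by the authors as NexteraXT libraries of paired reads and aligned to GRCm38 with STAR. The deposited values are raw counts, the number of read pairs on each gene, with nothing filtered or scaled. The annotation is not stated. Of 55385 IDs, 54487 equal GENCODE M21 IDs with their version and 55144 do so when it is dropped, and symbols, positions and exon lengths come from that release. Without molecular identifiers, copies of 1 molecule cannot be recognised, and counting error understates the whole error. Between 5.00% and 5.74% of pairs fell on more than 1 gene and were not counted.

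Genes with at least 5 read pairs in 3 or more libraries were tested by edgeR 4.0.16 (R 4.3.3; TMM factors, quasi-likelihood test), with p-values adjusted by Benjamini and Hochberg over every tested gene and a threshold of 0.1. TO was compared with control over 8 libraries, and the 3 specimen codes by an F test with group as the other term. Log2 CPM used a prior count of 2. Alternatives were DESeq2 1.42.0, other scaling and filters, blocks by code and by replicate number, the 6 libraries shown by the study, each library left out and the sum of the columns for single strands. The fits were tested on simulated data, where unchanged genes made up a larger share of the calls than the threshold allows, by code more with DESeq2 than with edgeR, so counts of calls may be too high.

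The text names the 10 genes, the 2 most abundant genes of each list and any list gene called, and the 10 genes most like the mean of the 10. Of the called cell division and erythroid genes only some are named. Any further gene was picked with its values in view. The 10 genes and the lists (other imprinted, IGF axis, fetal growth programme, cell division, alveolar maturation, and markers of hepatocytes, cartilage, skeletal muscle, cardiomyocytes, erythroid cells, thymocytes, mesenchyme, epithelium, endothelium, leukocytes and neuroendocrine cells) were chosen with earlier results of these data known.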

Additional observations from a re-analysis of the deposited data

Results flagged for a closer look

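Of 78 sets of values examined, the levels of the 10 genes and the summed levels of the lists in control, in TO and in code A, 6 held 1 library far from the other 3, where chance gives about 1 in 20, and 0 of them concerned the 10 genes. Among controls, Control 1 had 917 CPM of hepatocyte genes and the others 2.5997 to 27.1. Thymocyte genes summed to 518 CPM in TO 1, against 3.78 to 24.5 in the other TO lungs and 2.59 to 3.78 in the other lungs of code A. Skeletal muscle genes summed to 2836 CPM in TO 1, against 153 to 314 in the other TO lungs and 134 to 314 in the rest of code A. Cartilage genes summed to 221 CPM in TO 1, against 79.7 to 103 in the other lungs of code A.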

How the results depend on the processing

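By specimen code, Igf2 was called in all 14 alternatives and H19 in all but that without TO 4. The number of genes called, 1240, was 347 to 1895 with single libraries left out, 2260 with DESeq2 and 2876 with every gene that had a read. Of the 10 imprinted genes 3 were called, and 1 to 3 with single libraries left out, 6 with DESeq2 and 6 with every gene that had a read. Counts of called genes with single libraries left out were 6 to 16 for alveolar maturation, 1 to 6 for other imprinted genes, 2 to 9 for the IGF axis and 0 to 4 for the fetal growth programme. Without the group term they were 3 for other imprinted genes and 0 for the fetal growth programme. With every gene that had a read they were 11 and 5, and DESeq2 gave 5 for the fetal growth programme. The log2 fold change of code C against code A changed sign with single libraries left out for Dlk1 (-0.18 to 0.16), Peg3 (-0.034 to 0.094) and Igf2r (-0.18 to 0.60).

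For TO against control, the block by replicate number gave 3 calls, the block by code without TO 1 gave 1 and DESeq2 gave 7. The numbers were not shown to pair the lungs. The correlation of TO and control lungs of the same number was 0.0518, 0.130, 0.157 and 0.0709. Between lungs of different numbers it ran from -0.164 to 0.0971. In codes B and C the lungs of 1 number are also those of 1 code, so number and code cannot be told apart there. The log2 fold change changed sign with single libraries left out for Igf2 (-0.10 to 0.54), Dlk1 (-0.053 to 0.25), Mest (-0.19 to 0.10), Plagl1 (-0.060 to 0.10), H19 (-0.18 to 0.21), Igf2r (-0.20 to 0.14) and Cdkn1c (-0.16 to 0.019). That of H19 was -0.053 with the block by replicate number, -0.052 with the block by code, -0.13 with that block and no TO 1, -0.26 in the 6 libraries shown by the study and -0.011 with the columns for single strands added. In the 6 libraries Plagl1 had -0.037 and Igf2r 0.16, and with the block by code and no TO 1 Mest had 0.011 and Igf2r 0.0036. The cause of these changes was not tested. Without a library of code B or C its code is left with 1 lung, which is assumed to vary like the others. The single-strand sum and the counts per list under each alternative were chosen after seeing the data. With 270078 pairs, TO 1 limits what can be seen of scarce genes.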
